A study of Mus musculus with 16 samples.

Results

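The 927 regions described here were chosen by their peak scores, as places of open chromatin that ranked higher among the peaks of LPS-treated macrophages than among those of unstimulated macrophages, both without and with an LXR agonist. The cells were bone marrow-derived macrophages of female C57BL/6J mice aged 8 to 10 weeks, profiled by ATAC-seq, an assay that uses the preference of the Tn5 transposase for accessible DNA. There were 16 libraries of 50000 cells, 4 in each of 4 groups, and the series asked how the LXR agonist changes accessibility at macrophage enhancers before and after an inflammatory stimulus. After differentiation in L-cell conditioned medium and serum deprivation, cells received on day 8 either DMSO vehicle (Veh) or 500 nM of the synthetic LXR agonist T0901317 (T0) for 3 h, and those groups were harvested. The LPS and T0-LPS groups had the same pretreatment and then, without a change of medium, another 2 h with 10 ng/mL lipopolysaccharide. Stimulation by LPS and the longer culture therefore cannot be told apart.

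The deposited data are 1 list of peaks a group, called on the 4 libraries together. The Veh list held 35551 peaks, the T0 list 29839, the LPS list 33181 and the T0-LPS list 31085. Overlapping peaks were merged into 37648 regions, of which 26439 had a peak in all 4 lists and are called shared. For each list, a region took its highest peak score, expressed as a percentile, the share of peaks of that list with a lower score. A region entered the set when its percentile was at least 15 points higher in LPS than in Veh and at least 15 points higher in T0-LPS than in T0. These percentiles chose the regions and are given as a description without a test, and with 1 pooled list a group no value has a replicate check. A higher score can come from more cells with the region open or from a more open region in each cell, which cannot be told apart in bulk libraries.

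LPS is sensed by Toll-like receptor 4, whose signaling releases NF-kB from its IkB inhibitors and activates AP-1 through MAP kinases. In macrophages these factors bind mostly at enhancers already opened by lineage factors such as PU.1 and C/EBP, and secondary interferon signaling acts through STAT and IRF factors. LXR is a nuclear receptor for oxysterols that binds DNA with RXR at direct repeats spaced by 4 bases (DR4) and induces genes of cholesterol efflux. Of the markers of the labeled cell type, 18 of 20 macrophage identity genes had a shared region within 1 kb of their transcription start site (TSS), all but Cx3cr1 and Mrc1. Among markers of other lineages 1 of 15 had one, the endothelial and leukocyte gene Pecam1. The deposited lists had been restricted to enhancers of macrophages, so these counts do not check the cell type.

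The sequences below are the 200 bp at the center of the LPS peak in 6 of the most strengthened regions with a consensus match for NF-kB or AP-1, together with 2 regions chosen after their values were seen. All are plus-strand GRCm38 (mm10) sequence from the RefSeq assembly, and the name is that of a gene discussed below. Capitals mark matches to the NF-kB consensus of 10 letters or the AP-1 consensus TGACTCA on either strand. They are shown because the NF-kB consensus was the sequence feature whose share differed most between these regions and other shared regions. The regions named for Snx18 and Tnf, each with an AP-1 match and no NF-kB match, are not printed. The smaller of their 2 differences with LPS, 67.9 and 59.6 points, was above that of the Fosb and Il27 regions, 51.5 and 52.0 points.
Bcl3, chr7:19844686-19844885: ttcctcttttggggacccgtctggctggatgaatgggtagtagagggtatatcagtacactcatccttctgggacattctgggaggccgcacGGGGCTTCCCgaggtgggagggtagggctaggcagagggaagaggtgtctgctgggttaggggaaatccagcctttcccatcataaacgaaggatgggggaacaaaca
Tnip1, chr11:55023138-55023337: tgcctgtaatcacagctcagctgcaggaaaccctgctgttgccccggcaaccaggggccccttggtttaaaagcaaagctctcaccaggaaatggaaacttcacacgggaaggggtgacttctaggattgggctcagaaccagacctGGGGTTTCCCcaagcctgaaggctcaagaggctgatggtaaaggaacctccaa
Maml3, chr3:52017841-52018040: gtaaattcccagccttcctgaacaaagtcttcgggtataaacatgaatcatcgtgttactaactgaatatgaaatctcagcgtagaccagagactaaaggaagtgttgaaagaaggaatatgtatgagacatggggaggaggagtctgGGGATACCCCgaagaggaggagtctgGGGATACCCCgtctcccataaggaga
Arhgap10, chr8:77435107-77435306: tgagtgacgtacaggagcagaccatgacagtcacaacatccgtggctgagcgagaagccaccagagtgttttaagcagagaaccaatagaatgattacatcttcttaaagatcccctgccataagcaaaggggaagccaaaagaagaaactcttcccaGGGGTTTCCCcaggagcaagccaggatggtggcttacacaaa
Fosb, chr7:19266080-19266279: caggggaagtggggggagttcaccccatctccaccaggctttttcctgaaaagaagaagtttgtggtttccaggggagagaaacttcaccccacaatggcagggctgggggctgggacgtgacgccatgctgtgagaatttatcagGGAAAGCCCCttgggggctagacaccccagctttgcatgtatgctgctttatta
Il27, chr7:126599071-126599270: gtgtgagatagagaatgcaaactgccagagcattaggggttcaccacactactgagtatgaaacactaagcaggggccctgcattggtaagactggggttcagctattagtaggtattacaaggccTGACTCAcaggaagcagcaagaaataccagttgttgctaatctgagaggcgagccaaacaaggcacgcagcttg

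The other 2 are the promoter of Cxcl10, with matches to both consensus motifs, and an intron of Arhgef3, where capitals mark a DR4 match instead.
Cxcl10, chr5:92348893-92349092: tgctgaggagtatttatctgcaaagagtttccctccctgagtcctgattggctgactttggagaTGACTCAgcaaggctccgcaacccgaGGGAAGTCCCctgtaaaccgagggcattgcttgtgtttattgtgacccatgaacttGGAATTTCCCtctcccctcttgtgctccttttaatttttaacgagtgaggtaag
Arhgef3, chr14:27123602-27123801: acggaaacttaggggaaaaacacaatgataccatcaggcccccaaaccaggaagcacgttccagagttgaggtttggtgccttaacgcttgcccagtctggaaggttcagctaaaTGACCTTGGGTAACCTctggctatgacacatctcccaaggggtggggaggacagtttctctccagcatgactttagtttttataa

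The 927 strengthened regions made up 3.51% of the shared regions. LPS was higher than Veh by at least 15 points at 1460 shared regions (5.52%), and T0-LPS was higher than T0 by as much at 3405 (12.9%). Strengthened regions were therefore 63.5% (Wilson 95% interval 61.0 to 65.9) of the first group and 27.2% (25.8 to 28.7) of the second. The unequal counts depended on the scale: when percentiles were taken among shared regions alone, 2825 and 3008 regions passed and 1314 were strengthened in both, including 867 of the 927. With lists of equal length 2425 and 2631 passed and 1102 were strengthened in both, including 743 of the 927 (80.2%) with unchanged bounds. A fall of at least 15 points in both comparisons was found at 1376 regions (5.2%), called weakened below. Regions with differences of at least 15 points in opposite directions were few: 16 were higher in LPS than Veh and lower in T0-LPS than T0, and 179 showed the reverse.

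**Figure D1:**
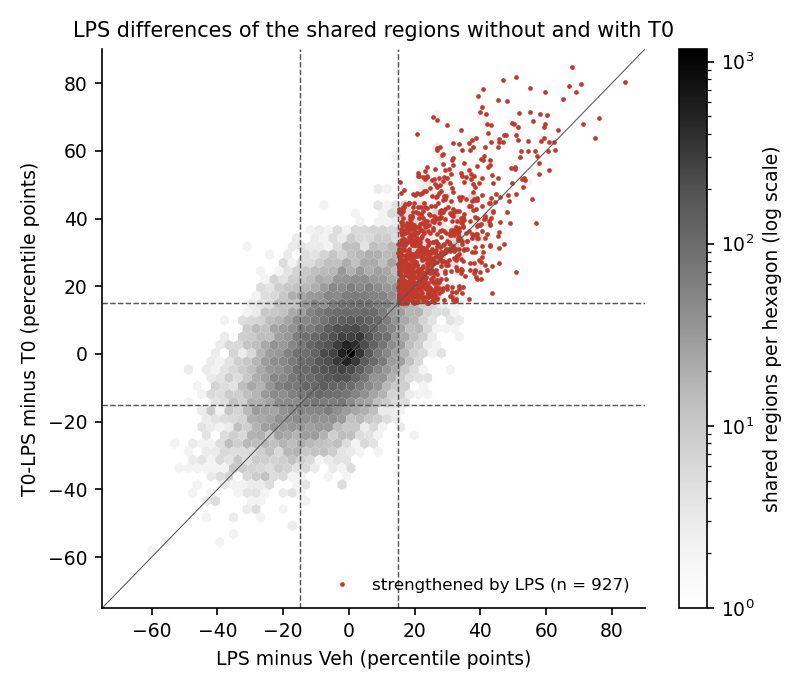
Difference in score percentile LPS minus Veh (x axis, percentile points) against T0-LPS minus T0 (y axis) for all 26439 shared regions as gray hexagons on a log color scale, with the 927 strengthened regions as red points. Dashed lines mark 15 points up and down and the diagonal marks equal differences; the strengthened regions fill the upper right corner that the rule sets, and reach 84.0 and 84.6 points.

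In unstimulated cells the strengthened regions were mostly weak peaks. Their median percentile was 35.7 in Veh (range 0.248 to 81.7) and 22.9 in T0 (0.189 to 82.6), against 62.4 and 55.3 over all shared regions. With LPS the median was 63.5 (21.4 to 98.7), and with T0 and LPS it was 60 (17.1 to 98.0), close to the medians of all shared regions, 59.4 and 56.7. These medians follow from the rule. The median difference was 24.0 points without T0 and 30.7 points with it, and the smaller of the 2 differences was 15 to 20 points at 375 regions, 20 to 30 points at 316, 30 to 40 points at 143, 40 to 50 points at 49 and 50 points or more at 44. On the deposited score the median ratio of LPS to Veh was 1.54 at strengthened regions and 0.825 over all shared regions, and the ratio of T0-LPS to T0 was 1.99 and 0.983.

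**Figure D2:**
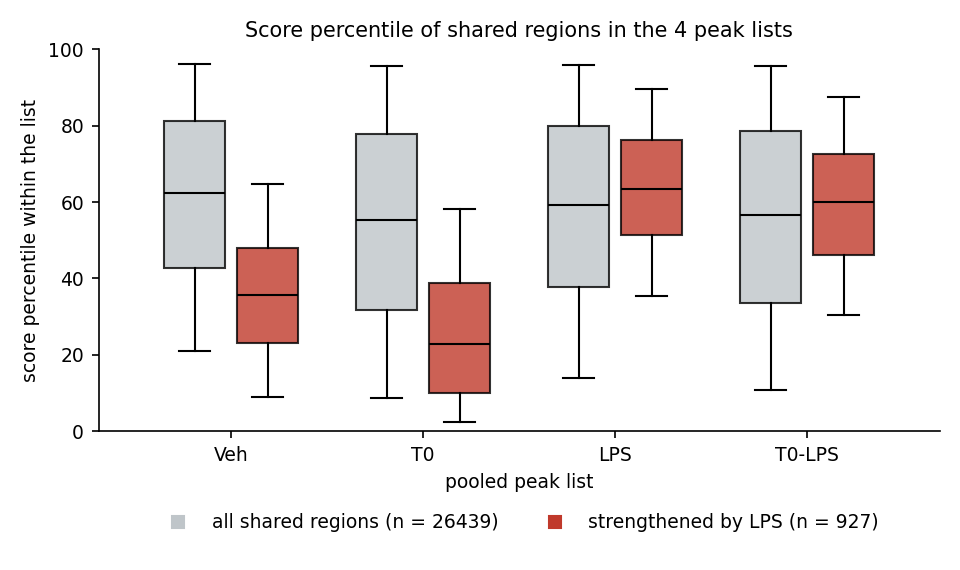
Score percentile (y axis) in the 4 pooled peak lists (x axis) of all 26439 shared regions in gray and of the 927 strengthened regions in red. Boxes span the quartiles with the median as a line and whiskers reach the 5th and 95th percentiles; the strengthened regions sit low in Veh and T0 and near the other regions in LPS and T0-LPS, as the rule requires.

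The threshold cut a continuous range. Just inside it were regions at Ndufs7, a subunit of respiratory complex I, at Tnfaip2, a gene induced by TNF, and at Rdm1, each with a smaller difference of 15 points after rounding. The Tnfaip2 region went from percentile 57.3 in Veh to 72.4 in LPS and from 52.5 in T0 to 79.2 in T0-LPS. Just outside it lay regions near Gm5148, Tank, which encodes a TRAF-binding regulator of NF-kB, and Cd47, the anti-phagocytic surface protein. The Tank region went from 37.0 to 52.0 and from 26.1 to 41.6.

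Peaks at strengthened regions were also wider with LPS. Among those with 1 peak in each list compared, the LPS peak was wider than the Veh peak at 747 of 914 (81.7%, 79.1 to 84.1), with medians of 425.5 and 350 bp, and the T0-LPS peak wider than the T0 peak at 847 of 898 (94.3%, 92.6 to 95.7), with medians of 406 and 282 bp. Over all shared regions the shares were 30.1% and 54.4%. Width comes from the same peaks as the score and is not independent of the rule.

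Consensus matches were counted in the 200 bp at the center of the LPS peak, on both strands, for 926 strengthened regions on assembled chromosomes. The background was the 20813 shared regions with a Veh and T0 percentile of at most 85, which alone could have been higher by 15 points and are called candidates. An NF-kB match was present in 207 strengthened regions (22.4%, 19.8 to 25.1) and in 3.93% of candidates (3.68 to 4.21), a ratio of 5.68. In weakened regions the share was 0.945% (0.553 to 1.61). The intervals cover counting error only, and neighboring regions are not independent replicates.

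The NF-kB share was similar at all starting levels up to percentile 80. Among strengthened regions with a Veh percentile below 20, from 20 to 40, from 40 to 60 and from 60 to 80, it was 21.0%, 21.8%, 23.5% and 21.7%. In the other candidates of the same ranges it was 2.55%, 2.82%, 2.94% and 3.26%. It was larger in regions with larger differences: 14.1% (11.0 to 18) of regions with a smaller difference of 15 to 20 points held a match, 22.8% with 20 to 30 points, 29.4% with 30 to 40 points, 40.8% with 40 to 50 points and 45.5% (31.7 to 59.9) with 50 points or more. Across all shared regions, the share went from 0.86% where the mean of both differences was below -30 points to 39.6% where it was 40 points or more. The most frequent matched words in strengthened regions, each counted with its reverse complement, were GGAAATTCCC with 18 matches, GGAATTTCCC with 17, and GGGAAGTCCC and GGAAAGTCCC with 16 each.

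**Figure D3:**
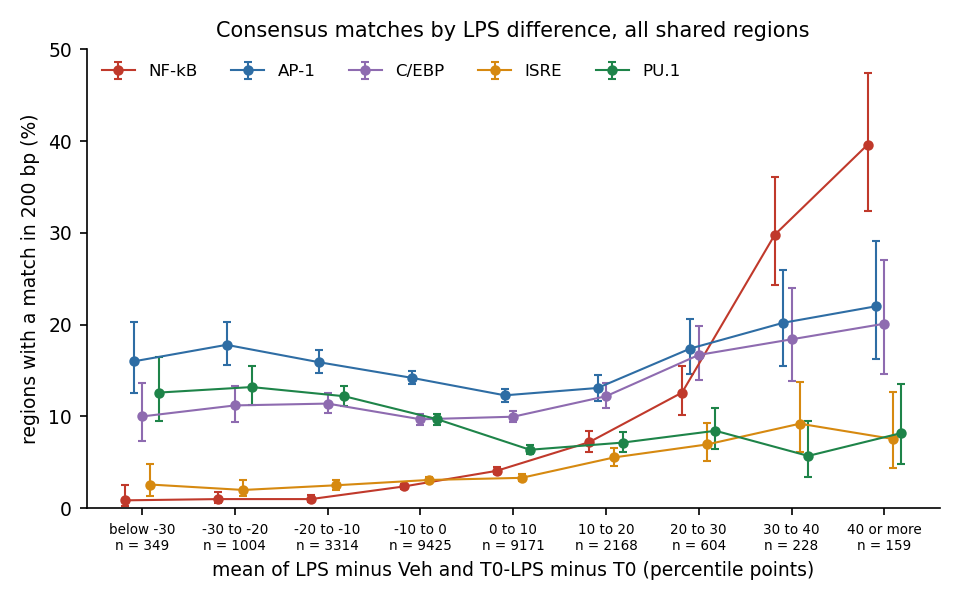
Share of all shared regions with a consensus match in 200 bp (y axis, percent) by the mean of the differences LPS minus Veh and T0-LPS minus T0 (x axis, percentile points, number of regions under each class), for 5 motifs with Wilson 95% intervals. The NF-kB share goes from 0.86% to 39.6% from the lowest to the highest class, while the AP-1 share stays between 12.3% and 22.0%.

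AP-1, the Fos and Jun dimer, was matched in 17.7% (15.4 to 20.3) of strengthened regions, 14.1% of candidates and 16.7% of weakened regions. AP-1 matches were less frequent near TSSs. More than 1 kb from a TSS, the AP-1 share was 20.4% in strengthened regions (17.7 to 23.6) and 20.4% in candidates (19.7 to 21.1), whereas the NF-kB share was 24.1% and 3.96%. Within 1 kb of a TSS, AP-1 matches were found in 8.49% (5.44 to 13.0) and 4.49%, and NF-kB matches in 16.5% (12.1 to 22.1) and 3.89%.

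Interferon-stimulated response elements (ISRE, GAAANNGAAA), bound by IRF factors, were present in 8.53% (6.9 to 10.5) of strengthened regions against 3.51% of candidates and 2.33% of weakened regions. The C/EBP consensus TTGCNNAA was present in 17.0% (14.7 to 19.5) against 11.1% and 10.5%. The PU.1 consensus GAGGAAGT was found in 7.45% (5.93 to 9.32) of strengthened regions, 8.83% of candidates and 13.2% (11.5 to 15.1) of weakened regions. More than 1 kb from a TSS it was found in 8.26% (6.46 to 10.5) of strengthened regions and 12.3% (11.7 to 12.9) of candidates. At least 1 of NF-kB, AP-1, ISRE and C/EBP was matched in 53.5% (50.2 to 56.6) of strengthened regions and in 29.1% of candidates.

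For the other motifs searched, the interval of the strengthened regions included the candidate share for the cAMP response element TGACGTCA (1.19% and 1.24%), the STAT consensus TTCCNGGAA (0.648% and 0.712%), the nuclear receptor half-site AGGTCA (12.5% and 11.7%) and DR4, searched as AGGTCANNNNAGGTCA with up to 2 mismatches in its 12 fixed letters (2.48% and 1.9%). The DR4 word contains the half-site, so those matches overlap. Matches were less frequent than in candidates for the EGR consensus GCGNGGGCG, at 1.84% (1.15 to 2.92) and 3.67%. Within 1 kb of a TSS, where most EGR matches lay, the interval included the candidate share, 7.08% (4.33 to 11.3) and 8.28%, as it did farther away, 0.28% (0.0769 to 1.02) and 0.667%. Matches were also less frequent for the consensus of CTCF, the insulator factor, at 0.216% (0.0593 to 0.784) and 0.846%. A match describes letters in a window and not binding.

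Strengthened regions lay farther from promoters than candidates, but nearer than weakened regions. The center of the LPS peak was within 1 kb of an annotated TSS at 212 of 927 (22.9%, 20.3 to 25.7), against 39.4% of candidates, 43.0% of all shared regions and 13.6% of weakened regions. Introns held 54.7% of strengthened regions (51.5 to 57.9), 45.4% of candidates and 54.4% of weakened regions, and intergenic sequence held 35.2%, 34.7% and 37.5%. The median distance to the nearest TSS was 6431 bp, against 3254 bp for candidates and 9822 bp for weakened regions. The median GC content of the 200 bp was 49.0%, against 53.0% and 50.0%. The TSS share was 32.0% (27.5 to 36.9) in regions with a smaller difference of 15 to 20 points and 13.6% (6.4 to 26.7) in those with 50 points or more.

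**Figure D4:**
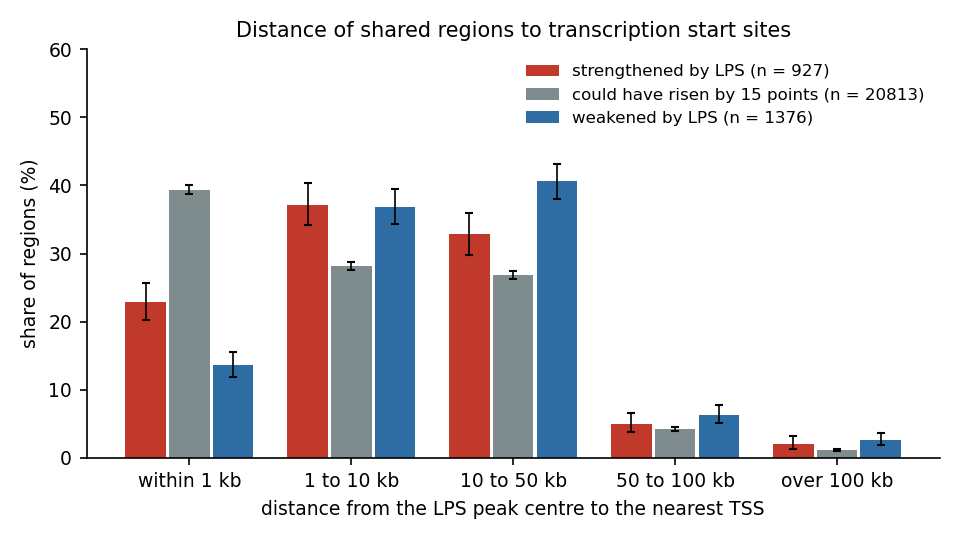
Share of regions (y axis, percent) by distance from the LPS peak center to the nearest TSS (x axis) for 927 strengthened regions in red, 20813 candidates in gray and 1376 weakened regions in blue, with Wilson 95% intervals. Within 1 kb lie 22.9%, 39.4% and 13.6%.

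The largest differences were at regions that ranked near the bottom of the unstimulated lists. The largest was in an intron of Tslp, the gene of an interleukin-7-like cytokine, 3417 bp downstream of its start on chromosome 18. It was at percentile 0.9 in Veh and 0.2 in T0, and at 84.9 in LPS and 80.6 in T0-LPS. An intron of Mfsd7a, a transporter of the major facilitator family, held a region (chr5:108446948-108447410) at 12.1 in Veh against 82.8 in LPS, and 4.6 in T0 against 84.4 in T0-LPS. Slc39a14 encodes the zinc and iron importer ZIP14, and a region in its intron (chr14:70329991-70330450) was at 9.6 in Veh against 85.7 in LPS, and 13.9 in T0 against 83.5 in T0-LPS. In these 3 regions both lists with LPS lay at least 69.6 points above their counterparts, and none held an NF-kB or AP-1 match in the scanned window.

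Of the other 7 among the 10 largest, those named for Snx18, Bcl3, Tnip1, Maml3 and Arhgap10 held an NF-kB or AP-1 match. Those named for Ube2e2 and Klf3 did not. The nearest protein-coding start to a region with an AP-1 match, in an intron of 4921509O07Rik, was that of Snx18, a sorting nexin gene, 131292 bp away. This region was at 8.3 in Veh against 79.6 in LPS, and 4.5 in T0 against 72.5 in T0-LPS. The region with 2 NF-kB matches lies in an intron of Maml3, a coactivator of Notch signaling, and was at 2.7 in Veh against 77.5 in LPS, and 19.1 in T0 against 82.9 in T0-LPS. An intron of Arhgap10 held a region at 2.1 in Veh against 65.8 in LPS, and 0.5 in T0 against 66.8 in T0-LPS. Introns of Ube2e2, a ubiquitin-conjugating enzyme gene, and intergenic sequence 22077 bp downstream of the start of Klf3, a transcriptional repressor gene, held regions with smaller differences of 69.1 and 67.9 points.

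Genes of the LPS response were grouped into 7 lists, of inflammatory cytokines, chemokines, NF-kB subunits and inhibitors, signaling feedback, AP-1 and early transcription factors, interferon-related factors and targets, and effectors and surface molecules. Of their 126 annotated genes, 51 (40.5%, 32.3 to 49.2) had a strengthened region within 100 kb of the TSS, against 2665 of 21911 protein-coding genes (12.2%). These loci are also rich in accessible regions, so shares of candidates were compared as well: 59 of 770 candidates (7.66%) near listed genes were strengthened, against 4.15% over all pairs of protein-coding genes and candidates. Weakened regions were near 37 of the 126 genes (29.4%) and near 13.6% of protein-coding genes. The gene named with a region is a neighbor, and no assay here ties a region to a gene.

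**Figure D5:**
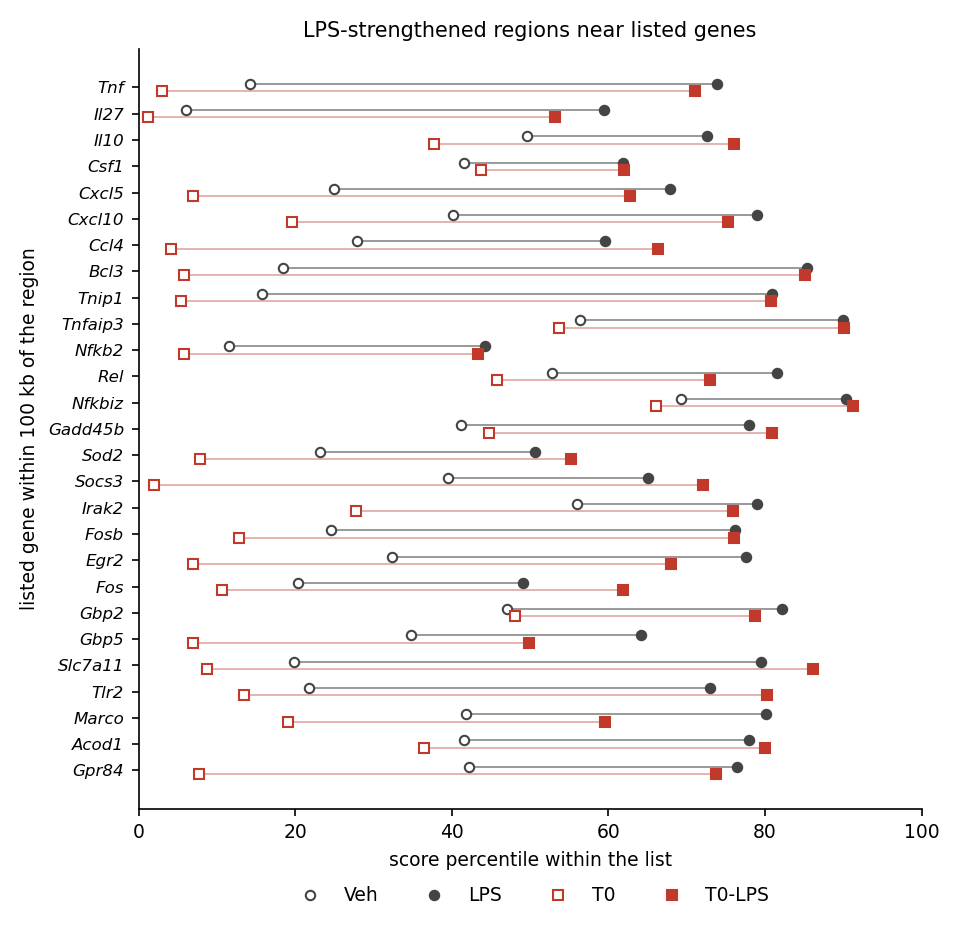
Score percentile (x axis) of the strengthened region with the largest smaller difference within 100 kb of each selected listed gene (y axis). Open symbols are for unstimulated and filled symbols for LPS lists, with circles without T0 and squares with T0. Other genes named in the text, among them Dusp1, Dusp2, Fosl1, Jund, Atf3 and the LXR target genes, are not shown. In every row the filled symbol lies to the right of the open one, as the rule requires. The T0 symbol lies lowest in all rows but those of Csf1, Gadd45b and Gbp2, and at 2.0 near Socs3. T0 was below Veh at 86.4% of all strengthened regions and 76.7% of shared regions, which depends on the percentile scale.

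Of 15 inflammatory cytokine genes, 5 had a strengthened region within 100 kb: Tnf, Lta, Il27, Il10 and Csf1. Of 90 candidates near the 15 genes 7.78% were strengthened, and 20.0% of the genes had a weakened region in the window. Tnf and its neighbor Lta, the genes of tumor necrosis factor and lymphotoxin, shared an intergenic region that was at 14.2 in Veh against 73.8 in LPS, and 3.0 in T0 against 71.0 in T0-LPS. Il27 encodes a subunit of an interleukin-12 family cytokine. The region 4230 bp upstream of its start (chr7:126598990-126599340) was at 6.1 in Veh against 59.4 in LPS, and 1.2 in T0 against 53.2 in T0-LPS, so that both lists without LPS had it among their weakest peaks. The anti-inflammatory Il10 had a region 64517 bp downstream of its start, within an intron of Mapkapk2, the p38-activated kinase gene, at 49.6 in Veh against 72.6 in LPS, and 37.7 in T0 against 76.0 in T0-LPS. The macrophage growth factor Csf1 was strengthened at its own start, from 41.5 in Veh to 61.8 in LPS and from 43.7 in T0 to 62.0 in T0-LPS. Il1a, Il1b, Il6, Il12b and Il23a had between 3 and 10 candidates in the window and no strengthened region; regions with a peak only after LPS are outside the set.

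Chemokine genes had 11 of 16 (68.8%, 44.4 to 85.8), over 8 distinct regions, since neighboring genes of a cluster shared regions. Of 67 candidates near them 11.9% were strengthened, and 9 of the 16 genes (56.2%) also had a weakened region in the window. The promoter of Cxcl10, an interferon-inducible T cell attractant, was open in all lists, and the region centered 104 bp upstream of its start (chr5:92348775-92349210) was at 40.1 in Veh against 79.0 in LPS, and 19.6 in T0 against 75.2 in T0-LPS. Its 200 bp printed above hold an AP-1 match and 2 NF-kB matches. A region 41245 bp upstream of Cxcl5, which encodes a neutrophil attractant, was at 24.9 in Veh against 67.8 in LPS, and 7.0 in T0 against 62.8 in T0-LPS and also lies within 100 kb of Cxcl3. A region 74838 bp downstream of the start of Ccl4, with an NF-kB match, was at 27.9 in Veh against 59.5 in LPS, and 4.1 in T0 against 66.3 in T0-LPS, and lies within 100 kb of Ccl3 too. At the start of Ccl4 itself a weaker region went from 8.1 to 23.4 and from 2.2 to 27.7. Cxcl1, Cxcl2, Ccl5, Ccl17 and Ccl22 had none.

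NF-kB subunits and inhibitors had 8 of 14 genes with a strengthened region, over 14 regions, which were 12.8% of the 109 candidates near them. Weakened regions lay near 28.6% of the genes. Most of the genes are themselves induced by NF-kB and feed back on it. Bcl3, an atypical IkB protein that binds p50 and p52, had 3 regions, each within 25 kb of the next. The strongest (chr7:19844539-19845033), 22016 bp upstream of its start, was at 18.4 in Veh against 85.3 in LPS, and 5.8 in T0 against 85.1 in T0-LPS. Tnip1, a partner of the deubiquitinase A20, had a region 60321 bp upstream of its start in an intron of Anxa6 (chr11:55022999-55023477), at 15.8 in Veh against 80.9 in LPS, and 5.4 in T0 against 80.7 in T0-LPS. Both regions differed by at most 0.2 points between LPS and T0-LPS. The A20 gene Tnfaip3 had a region 50641 bp downstream of its start, at 56.4 in Veh against 90 in LPS, and 53.7 in T0 against 90.1 in T0-LPS. Nfkb2 and Rel, which encode NF-kB subunits, had regions inside the genes with smaller differences of 32.6 and 27.3 points, and the promoter of Nfkbiz, the gene of IkB-zeta, went from 69.3 to 90.3 and from 66.1 to 91.2. Nfkbia, Nfkb1, Rela, Relb, Nfkbib and Tnip3 had none.

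Signaling feedback and survival genes had 6 of 19. Of 128 candidates near them 6.25% were strengthened, and 21.1% of the genes had a weakened region in the window. Socs3, an inhibitor of JAK kinases, showed the widest spread between lists. Its intron region, centered 787 bp inside the gene, was at 39.5 in Veh against 65.0 in LPS, and 2.0 in T0 against 72.1 in T0-LPS, so the list with T0 alone stood far below the other 3. Irak2, a kinase of Toll-like receptor signaling, had an intron region with an NF-kB match at 56.0 in Veh against 78.9 in LPS, and 27.8 in T0 against 75.9 in T0-LPS. A region 37504 bp downstream of the start of Gadd45b, a stress-response gene, was nearly the same with and without T0, at 41.2 in Veh against 77.9 in LPS, and 44.7 in T0 against 80.9 in T0-LPS. Sod2, the mitochondrial superoxide dismutase gene, and the MAP kinase phosphatase genes Dusp1 and Dusp2 had regions with smaller differences of 27.3, 18.5 and 16.3 points.

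AP-1 and early transcription factor genes had 8 of 17, among them Fosb, Egr2, Fos, Fosl1, Jund and Atf3. Of 155 candidates near these genes 8 were strengthened (5.16%), near the 4.15% over all protein-coding genes, and 35.3% of the genes had a weakened region in the window. The region nearest in this list to the top was 43871 bp downstream of the start of Fosb, in an intron of Vasp (chr7:19265893-19266467), at 24.6 in Veh against 76.1 in LPS, and 12.8 in T0 against 76.0 in T0-LPS. Egr2 had an intergenic region with NF-kB and C/EBP matches at 32.3 in Veh against 77.5 in LPS, and 7.0 in T0 against 68.0 in T0-LPS. Fos had one 49800 bp upstream of its start, at 20.4 in Veh against 49.1 in LPS, and 10.7 in T0 against 61.8 in T0-LPS. The last was higher with T0 and LPS than with LPS alone by 12.7 points.

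Interferon-related genes had 2 of 20 (10.0%, 2.79 to 30.1), against 12.2% of all protein-coding genes. Of 98 candidates near them 2.04% were strengthened, against 4.15% over all protein-coding genes. Weakened regions lay near 10.0% of the genes. The 2 genes with a strengthened region, Gbp2 and Gbp5, encode guanylate-binding proteins of antimicrobial defense. The promoter region of Gbp2 was at 47.1 in Veh against 82.1 in LPS, and 48.1 in T0 against 78.7 in T0-LPS, and an intron region of Gbp5 at 34.8 in Veh against 64.1 in LPS, and 7.0 in T0 against 49.8 in T0-LPS. Each held an AP-1 and an ISRE match. Irf1, Irf7, Stat2, Ifit1, Ifit2, Ifit3, Isg15 and Mx1 had no strengthened region.

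Effector and surface molecule genes had 11 of 25 (44.0%). Of 131 candidates near them 9.16% were strengthened, and 36.0% of the genes had a weakened region in the window. A region in an exon of the cystine importer gene Slc7a11, 41022 bp from its start (chr3:50402367-50402845), was at 19.9 in Veh against 79.5 in LPS, and 8.7 in T0 against 86.1 in T0-LPS. At the start of Tlr2, the lipoprotein receptor gene, a region with an NF-kB match (chr3:83841142-83841895) was at 21.7 in Veh against 73.0 in LPS, and 13.4 in T0 against 80.3 in T0-LPS, and its peak was 247 bp wide in Veh and 751 bp in LPS. The promoter of Gpr84, a receptor for medium-chain fatty acids, was at 42.2 in Veh against 76.4 in LPS, and 7.7 in T0 against 73.7 in T0-LPS. Near Marco, a scavenger receptor gene, the region was at 41.8 in Veh against 80.1 in LPS, and 19.1 in T0 against 59.6 in T0-LPS, the one named region of this list with a T0-LPS level well below that of LPS. Acod1, which makes itaconate, had a region 34275 bp upstream at 41.5 in Veh against 78.0 in LPS, and 36.5 in T0 against 80 in T0-LPS. Ptgs2, Nos2, Cd40 and Saa3 had none.

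LXR target genes had 3 of 15 (20.0%, 7.05 to 45.2). Of 85 candidates near them 5.88% were strengthened, against 4.15% over all protein-coding genes. Weakened regions lay near 7 of the 15 genes (46.7%). Lpcat3, which remodels phospholipids, had its largest difference 67168 bp from the start in an intron of Ptpn6, with a DR4 match, at 44.1 in Veh against 64.4 in LPS, and 27.6 in T0 against 69.5 in T0-LPS. Mertk, a receptor for apoptotic cells, had an intron region at 18.9 in Veh against 38.0 in LPS, and 4.8 in T0 against 40 in T0-LPS. The start of Fasn, fatty acid synthase, went from 46.5 in Veh to 64.4 in LPS and from 42.4 in T0 to 62.0 in T0-LPS. The cholesterol transporter genes Abca1 and Abcg1, and Srebf1, Mylip and Nr1h3, had none. For comparison, macrophage identity genes had 10 of 20 (50.0%, 29.9 to 70.1), with 13 of 171 candidates strengthened (7.6%). In the 7 lists together the shares were 40.5% of genes and 7.66% of candidates. The identity list includes Tlr4, the LPS receptor gene, and Cd14, each with a strengthened region in the window, so it is not a set apart from the LPS response. Housekeeping genes had 3 of 20, with 2.67% of candidates strengthened, and markers of other lineages 1 of 15, with 2.33%.

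Without LPS, T0 percentiles were mostly below those of Veh at strengthened regions. The median difference was -9.7 points, against -7.5 in candidates and -5.3 over all shared regions, and 281 regions (30.3%, 27.4 to 33.3) were lower with T0 by at least 15 points, against 24.0% of candidates. This depends on the scale, since the T0 list is the shortest. With lists of equal length the median was -0.8 points over the 1102 regions strengthened on that scale. With percentiles among shared regions it was -0.7 points over the 1314 regions strengthened there. Over all shared regions the medians on those scales were 0.2 and 0.1 points. With LPS the median difference of T0-LPS and LPS was -3.3 points. Over the regions strengthened on those scales it was 0.1 and 0.0 points. Over all shared regions it was -1.6 points, and 0.1 points on each of those scales. T0-LPS stood above Veh at 913 of 927 regions (98.5%), against 32.9% of candidates and 33.3% of all shared regions. The rule favors this, since it sets LPS at least 15 points above Veh. These comparisons use the same lists as the rule and are given side by side only.

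At 82 strengthened regions (8.85%, 7.18 to 10.8) T0-LPS was at least 15 points below LPS, and at 8 it was as much above. The share among candidates was 11.4%. An NF-kB match was present in 8 of the 82 (9.76%, 5.03 to 18.1) and in 23.6% (20.8 to 26.6) of the others, while AP-1 matches were present in 20.7% (13.4 to 30.7) and 17.4%. Within 1 kb of a TSS lay 12.2% (6.76 to 21.0) of the 82 and 23.9% (21.2 to 26.9) of the others. The T0-LPS score also entered the rule, and the 82 were not matched to the others by size of difference. The NF-kB share itself varied with that size, from 14.1% at 15 to 20 points to 45.5% at 50 points or more. The lowest 5, named after their values were seen, lay near AL607142.1 in an intron of Hivep3, in an intron of Scarb2, upstream of Sema4a, in an intron of Gm572 and far from Tex13c3 on chromosome X. The Sema4a region, 4088 bp upstream of this semaphorin gene, was at 41.5 in Veh against 67.0 in LPS, and 17.1 in T0 against 34.7 in T0-LPS.

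One region stood apart in the other direction. In an intron of Arhgef3 a region (chr14:27123496-27123965) was at 17.4 in Veh against 45.6 in LPS, and 57.0 in T0 against 84.3 in T0-LPS. It was higher with T0 by 39.7 points without LPS and by 38.7 points with LPS, and higher with LPS by 28.2 and 27.2 points. The only other strengthened region higher with T0 than Veh by at least 15 points was the Maml3 region, by 16.4 points. The DR4 match in capitals above, TGACCTTGGGTAACCT on the plus strand, is 1 of 23 among strengthened regions, and the 23 together had a median T0 minus Veh difference of -11.1 points. Among the 8 regions with T0-LPS at least 15 points above LPS, the promoter shared by Cxcl16 and Zmynd15 went from 0.2 in Veh and 4.1 in T0 to 29.8 in LPS and 50.8 in T0-LPS.

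Strengthened regions were mostly solitary. Of 927, 810 had no other within 25 kb, and the rest formed 48 pairs and 7 groups of 3. The region next to a strengthened one among candidates, on either side, was itself strengthened at 12.3% (10.3 to 14.6), against 8.5% (8.12 to 8.89) for other candidates. A region found in LPS and T0-LPS only lay within 25 kb of 16.4% (14.2 to 18.9) of strengthened regions, 8.11% of other candidates and 6.61% of weakened regions. Besides Bcl3, named groups of 3 lay at the noncoding gene Gm29340 on chromosome 2, between Ankdd1a and Plekho2 on chromosome 9, and at Slc25a37 and Gm16867 on chromosome 14. Slc25a37, or mitoferrin, imports iron into mitochondria. The Slc25a37 and Gm16867 groups are copies of one another at 100% identity and reads cannot be assigned between them with certainty, so these 6 regions are given as uncertain.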

How the data were processed

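ATAC-seq was performed by the authors on 4 libraries in each of 4 groups. Per the labels and the methods, reads were trimmed with cutadapt, aligned with Bowtie2 to mm10, deduplicated with SAMtools and used to call peaks with MACS2 on the pooled libraries of a group, and peaks were kept where H3K27ac or H3K4me2 of other macrophages marked an enhancer. Each deposited list holds a position and a score per peak. The score is the authors' peak caller value, whose meaning no header states, and it grows with depth, so it was used as a percentile within its list (mid-rank for ties). Depth per library is unknown here.

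Peaks were merged at 1 bp overlap. TSSs and exons came from GENCODE vM21 basic, and 196 of 197 listed genes were found by symbol. Sequences were read from RefSeq GRCm38.p6 with pysam 0.24.0, and second copies (at least 80% of a region at 95% identity or more) were sought with minimap2 2.31-r1302. Calculations used Python 3.11.15, pandas 2.3.3 and scipy 1.17.1, and were tested on simulated lists. Shares carry Wilson 95% intervals, which cover counting error only. No test was made, because a group has 1 list.

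The regions and gene lists were chosen with earlier results of these data known. Named were the 10 largest differences, up to 6 genes a list within 100 kb, 5 groups chained at 25 kb, and 3 regions on each side of the threshold; items named after their values were seen are marked as such. Some items are not reported here. Alternatives changed the percentile, the score of a region, the threshold, the merging, the windows and the background.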

Additional observations from a re-analysis of the deposited data

How the results depend on the processing

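No paired analysis was possible because each list pools the 4 libraries of its group, and leaving out a replicate gave no value for the same reason. A threshold of 10 points gave 1688 regions and one of 20 points 552; the number stayed within 1.5 times under every other alternative. The share within 1 kb of a TSS was 30.6% and 16.7% at those thresholds, 28.2% with percentiles among shared regions, 26.5% with lists of equal length, 18% within 500 bp and 30.5% within 2000 bp (candidates 34.9% and 45.1%). The NF-kB share was 16% and 27.9% at the thresholds of 10 and 20 points, 18.7% with percentiles among shared regions, 19.3% with equal lists, 31.1% when the whole region was scanned (candidates 8.54%) and 19.7% at the center of the Veh peak (candidates 3.67%). The AP-1 share moved when the whole region was scanned, to 25.9% (candidates 20.18%). The share of listed genes with a strengthened region within 100 kb was 57.9% and 27.8% at the thresholds of 10 and 20 points and 53.2% with percentiles among shared regions, and it was 18.3% within 10 kb and 57.1% within 200 kb. The median T0 minus Veh difference was -0.7 with percentiles among shared regions and -0.8 with equal lists. Each was taken over the regions strengthened on its own scale. The median T0-LPS minus LPS difference lost its sign there, at 0.0 and 0.1. On those scales the list lengths no longer enter. Of 75 alternative values, 51 stayed within the counting interval of the reported value or within 1.5 times the count, 22 moved and 2 reversed. Leaving out regions with a second copy, an alternative chosen after seeing the data, left 903 regions and moved none of these values.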

Other observations

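Members of several gene families lay in near-identical sequence. Of 926 strengthened regions searched, 24 had at least 1 second copy elsewhere on the assembled chromosomes, and reads from such copies may be placed at either. The neighboring genes of nonclassical MHC class I molecules, H2-Q4, H2-Q6 and H2-Q7, each had one (identity 98.3% to 99.2% to another of them), with smaller differences of 26.6, 27.7 and 15.9 points. Bcl2a1d and Bcl2a1a, survival genes of the BCL2 family, had regions with 100% and 98.4% identity to another place on chromosome 9 and smaller differences of 15.1 and 21.4 points. Copies were also found for regions at Ugt1a7c and Ugt1a6a, genes of glucuronidation enzymes, with smaller differences of 31.3 and 16.7 points, and for regions at Gm21887 on X and Gm47283 on Y, whose copies lie on the other of these chromosomes.

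Promoters of some macrophage identity genes were among the strengthened regions. At the start of Adgre1, which encodes the F4/80 antigen, the region was at percentile 50.8 in Veh against 77.7 in LPS, and 46.9 in T0 against 63.4 in T0-LPS. At the start of Tfec, a transcription factor gene of the MiT family, it was at 32.6 in Veh against 78.2 in LPS, and 5.9 in T0 against 69.3 in T0-LPS. The lineage factor genes Spi1, Cebpa, Runx1 and Maf had no strengthened region within 100 kb. Both promoters were picked out after their values were seen.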
